A study of Homo sapiens with 6 samples.

Results

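The messages of 10 enzymes that make serine, one-carbon units, arginine and cysteine were followed in 6 RNA-seq libraries of NCI-H1299 cells, an established human line of non-small cell lung cancer, labelled as lung adenocarcinoma. The members were the rows of the deposited table named PHGDH, PSAT1, PSPH, SHMT2, MTHFD2, MTHFD1L, ASS1, ASL, CTH and CBS, which gave 10 of 35784 gene rows. All 10 passed the filter on low counts. The control group had 3 libraries with the genotype label control, from cells titled KO-NC, and the other group had 3 libraries labelled IGF2BP3 knockout. IGF2BP3 binds messages, among them those carrying N6-methyladenosine, and is known to stabilise many of them. The knockout was made with the lentiviral vector LentiCrisprv2 and designed guide RNAs, and infected cells were kept in puromycin and expanded from single-cell colonies. Loss of the protein by western blot is stated in the labels' protocol. The labels name neither the colony behind each library nor separate cultures for the replicates. The p-values therefore cover only variation among these samples, possibly technical, and a difference between colonies cannot be told apart from the knockout.

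PHGDH, PSAT1 and PSPH are the enzymes of the phosphorylated pathway, which turns the glycolytic intermediate 3-phosphoglycerate into serine. SHMT2 then splits serine to glycine in mitochondria and loads its carbon onto folate, and MTHFD2 and MTHFD1L carry that carbon on to formate, which the cytosol uses for purines and thymidylate. ASS1 and ASL make arginine from citrulline and aspartate, the same reactions that run in the urea cycle, and many tumours are known to silence ASS1. CBS and CTH form the transsulfuration route from homocysteine to cysteine, a building block of glutathione. Several of these genes are known targets of ATF4, the transcription factor of the amino acid response.

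Total counts per library ran from 67674223 to 80810319, so that even CTH, the least abundant member, rested on 185 to 279 counts. Control replicate 3 stood apart: in a chi-square test of raw counts it gave 45.3 and 45.2 per degree of freedom against the remaining controls, which gave 12.2 against one another. Knockout replicate 1 did so too, at 98.1 and 106, against 14.8 between knockout replicates 2 and 3. IGF2BP3 itself was at 58.8, 51.6 and 54.1 CPM (TMM-adjusted counts, expressed per fixed library size) in control replicates 1, 2 and 3, against 39.9, 25 and 22.6 CPM in the knockout. It fell to 53.2% of control (edgeR's quasi-likelihood test, log2 fold change -0.91, SE 0.20, adjusted p = 0.017), a call lost without control replicate 1, 2 or 3 or knockout replicate 2 (adjusted p from 0.05 to 0.067). The 10 markers of epithelium and lung adenocarcinoma summed to 9584 to 10177 CPM in the controls and 5316 to 6530 CPM in the knockout, nearly all of it keratins, whereas NKX2-1 reached at most 0.736 CPM and SFTPC at most 0.246 CPM in any library. The markers did not move alike. Of the 8 tested, KRT8, KRT18, KRT19, CDH1 and NAPSA were called lower, and KRT7, EPCAM and NKX2-1 did not pass. KRT19 fell from 64.1 to 0.645 CPM, whereas KRT7 was at 1830 and 1553 CPM (edgeR adjusted p = 0.39). The part of these shifts in the results was not tested, and in bulk RNA fewer cells of a type and less RNA per cell cannot be told apart. Markers of blood cells summed to at most 27.3 CPM, with CD3E at 0 throughout, and markers of fibroblasts and endothelium to at most 11.8 CPM.

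In the comparison of knockout with control cells, ASS1 fell, MTHFD1L rose and the other 8 members did not pass the threshold, an adjusted p of 0.05 over all tested genes. Of 20134 tested genes 19.7% passed, 8.21% higher and 11.5% lower in the knockout, so that 2 of 10 is near the background. The median log2 fold change of the members was 0.05, against 0.01 for all tested genes, and the median size of the change was 0.38 against 0.32. The fall of ASS1 was by far the largest change among the members.

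The upstream regions of both genes that passed are shown because theirs are the changes in this comparison. They come from RefSeq (GRCh38.p14), run 5′ to 3′ on the strand of the gene, and each is 300 bases long, most of it upstream of an annotated start. The ASS1 stretch is at chr9:130444711-130445010 and that of MTHFD1L at chr6:150866083-150866382, both on the plus strand. Capitals mark the E-box CACGTG and the core TGATGNAA of the element that ATF4 binds together with C/EBP proteins, searched on both strands.
ASS1: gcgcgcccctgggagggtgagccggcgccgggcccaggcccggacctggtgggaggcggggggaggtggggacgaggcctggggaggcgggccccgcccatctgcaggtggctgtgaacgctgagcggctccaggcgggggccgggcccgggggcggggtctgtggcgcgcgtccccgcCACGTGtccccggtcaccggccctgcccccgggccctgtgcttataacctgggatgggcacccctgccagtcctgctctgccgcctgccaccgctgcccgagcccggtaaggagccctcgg
MTHFD1L: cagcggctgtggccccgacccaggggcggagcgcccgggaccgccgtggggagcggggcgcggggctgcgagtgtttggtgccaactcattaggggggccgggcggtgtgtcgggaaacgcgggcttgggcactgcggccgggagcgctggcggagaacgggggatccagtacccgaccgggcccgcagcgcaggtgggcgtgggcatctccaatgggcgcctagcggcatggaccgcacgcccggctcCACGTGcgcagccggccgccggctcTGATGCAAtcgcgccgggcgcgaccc
The E-box began 71 bases before the ASS1 start, and the MTHFD1L stretch held an E-box and, 24 bases after its start, TGATGCAA. Both stretches were chosen because they hold a match: the other ASS1 promoter in the table and 1 of the 4 MTHFD1L promoters hold neither motif. Promoters were matched for 8 of the 10 members, 14 stretches in all. CACGTG was found in 4 of the 14, against 7.23% of 34943 promoters of the same length, and TGATGNAA in 3, against 3.62%. Of these matches 3 of each motif are in MTHFD1L promoters that overlap and share the same letters. TGACNNNGC, the core of the antioxidant response element, was found in 2 of the 14, of MTHFD2 and CBS, against 13.3% of all promoters. A match of letters is a description of the sequence and shows no binding, and an absent match says nothing outside the window.

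**Figure D1:**
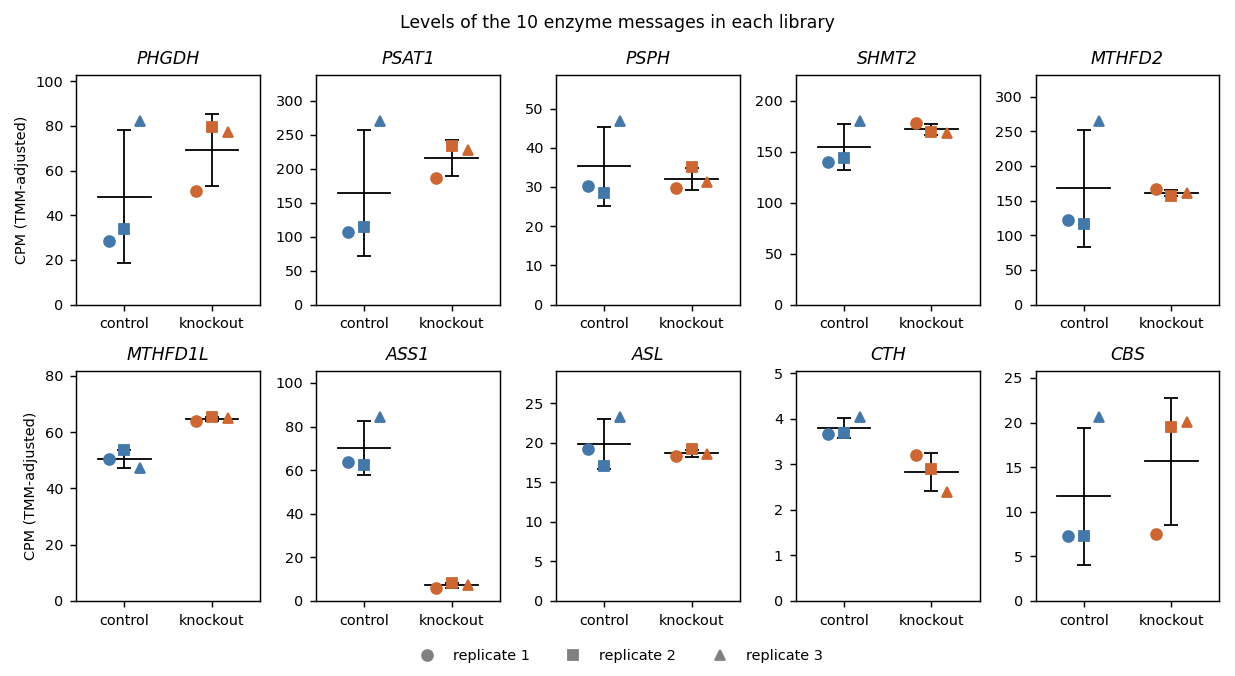
TMM-adjusted CPM of each of the 10 messages (y axis, from 0, scaled per gene) in control and knockout libraries; points are single libraries, lines the group means and bars the SD (n = 3). ASS1 lies between 62.2 and 84.4 CPM in the controls and between 6.14 and 8.4 CPM in the knockout, whereas control replicate 3 is the highest control for all members except MTHFD1L.

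The arginine-forming pair split. ASS1 (ENSG00000130707, GRCh38 chromosome 9 from 130444961 to 130501274, plus strand), which condenses citrulline with aspartate, was at 63.7, 62.2 and 84.4 CPM in the controls and at only 6.14, 8.4 and 7.11 CPM in the knockout. Every knockout library was thus far below every control. The mean fell from 70.1 ± 12.4 to 7.22 ± 1.13 CPM (SD, n = 3), a 9.72-fold drop that left 10.3% of control (log2 fold change -3.28, SE 0.17, edgeR adjusted p = 2.7e-05). It ranked 44th by p-value among all tested genes and 215th among falls by size. The call held with each library left out, with log2 fold changes from -3.40 to -3.13.

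ASL (ENSG00000126522, chromosome 7 from 66075800 to 66094697), which cleaves argininosuccinate to arginine and fumarate, was at 19.2, 17.1 and 23.3 CPM in the controls and 18.3, 19.2 and 18.6 CPM in the knockout. Its groups overlapped and the difference was within the spread (log2 fold change -0.09, SE 0.13, edgeR adjusted p = 0.68).

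Genes around ASS1 did not share its fall. Among the 25 tested genes on either side, the median log2 fold change was 0.06, and the lowest was -2.04, above the value of ASS1. Of these 50 neighbours 5 were called higher and 6 lower, against 8.21% and 11.5% of all tested genes. The nearest tested gene upstream, NCS1, a neuronal calcium sensor, rose (log2 fold change 0.97), and the nearest downstream, FUBP3, did not pass (0.10). The 7 ASS1 pseudogenes found in the table, ASS1P2, ASS1P3, ASS1P5, ASS1P9, ASS1P10, ASS1P11 and ASS1P12, held 55 counts over all libraries, 0.333% of the 16528 counts of ASS1, so that little was counted there. For ASL the copy ASLP1 held 1.08% of its counts.

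Around the other members the medians of 50 neighbours lay between -0.13 for CBS and 0.19 for PSPH. Of the 50 neighbours of PSPH 8 were called higher and 0 lower, and of those of CBS 1 was called higher and 12 lower. Over all tested genes 8.21% were called higher and 11.5% lower. PSPH and ASL share part of their neighbours, since both lie near the centromere of chromosome 7. The copies of PSAT1, PSPH and MTHFD2 in the table held at most 0.184% of the counts of their parent gene. CBS is known to have a near-identical second copy in the reference, CBSL. A search by name found no gene row for CBSL, so the CBS counts are uncertain.

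The serine enzymes varied more between controls than between the groups. PHGDH (ENSG00000092621, chromosome 1 from 119648411 to 119744218, plus strand), the dehydrogenase that opens the pathway, was at 28.4, 33.8 and 82.4 CPM in the controls and at 50.9, 79.4 and 77.4 CPM in the knockout. Control replicate 3 was thus above every knockout library and the other controls below every one. The group difference did not pass (log2 fold change 0.52, SE 0.38, edgeR adjusted p = 0.39).

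PSAT1 (ENSG00000135069, chromosome 9 from 78297125 to 78330093, plus strand), the aminotransferase of the second step, showed the same order. It was at 107, 114 and 271 CPM in the controls and at 186, 234 and 228 CPM in the knockout (log2 fold change 0.40, SE 0.33, edgeR adjusted p = 0.46). PSPH (ENSG00000146733, chromosome 7 from 56011051 to 56051467, minus strand), the phosphatase that releases serine, was at 30.3, 28.4 and 46.9 CPM and at 29.9, 35.2 and 31.2 CPM. Its groups overlapped, with control replicate 3 highest again (log2 fold change -0.14, SE 0.19, edgeR adjusted p = 0.67).

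Control replicate 3 also stood apart in the chi-square test of raw counts. Without it, PHGDH was called higher in the knockout (log2 fold change 1.15, edgeR adjusted p = 0.020) and so was PSAT1 (0.96, adjusted p = 0.0061). The PSPH difference turned from -0.14 to 0.13 and still did not pass (adjusted p = 0.49). In that fit, in which 5.19% of 21030 tested genes were called higher and 7.68% lower, 4 members were higher and 1 lower. Control replicate 3 was the highest control for 9 of 10 members, so leaving it out lowers their control mean by construction. The calls of PHGDH, PSAT1 and MTHFD2 in that fit are therefore no independent result about the members. The remaining call, that of MTHFD1L (0.31, edgeR adjusted p = 0.038), was also made with all libraries. For MTHFD1L control replicate 3 was the lowest control. Without knockout replicate 1, the other library that stood apart, 1 member was higher and 1 lower, where 10.8% and 14.5% of 21123 tested genes were. With any library but control replicate 3 left out, neither PHGDH nor PSAT1 passed (log2 fold changes from 0.25 to 0.71 and from 0.16 to 0.50). Control replicate 3 held 2.65 times the mean PHGDH level of the other controls and 2.45 times that of PSAT1.

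**Figure D2:**
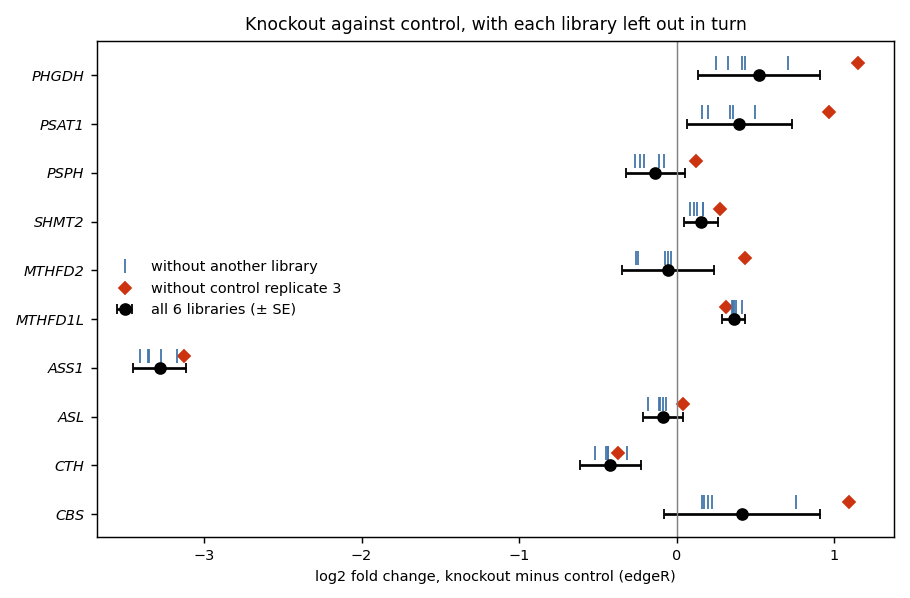
Log2 fold change of knockout minus control for each member (x axis) from the edgeR fit of all 6 libraries with its SE (black), without control replicate 3 (red diamonds) and without each other library (blue ticks). ASS1 stays between -3.40 and -3.13, whereas PHGDH, PSAT1 and CBS move to 1.15, 0.96 and 1.10 without control replicate 3.

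The mitochondrial folate enzymes gave the one small rise. MTHFD1L (ENSG00000120254, chromosome 6 from 150865679 to 151101887, plus strand), the synthetase that releases formate, was at 50.6, 53.7 and 47.2 CPM in the controls and at 64, 65.4 and 65 CPM in the knockout. Every knockout library was above every control, as was also true of 19.7% of all tested genes. The groups did not overlap in either direction for 41.3%. The mean rose from 50.5 ± 3.25 to 64.8 ± 0.749 CPM (SD, n = 3), a 1.28-fold change (log2 fold change 0.36, SE 0.07, edgeR adjusted p = 0.013). The value was nearly the same with each library left out (0.31 to 0.41), but the call was lost without control replicate 1 (adjusted p = 0.061), knockout replicate 2 (0.051) and knockout replicate 3 (0.050). MTHFD1L was the only member for which control replicate 3 was not the highest control.

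MTHFD2 (ENSG00000065911, chromosome 2 from 74186172 to 74217565, plus strand), the dehydrogenase and cyclohydrolase of the same route, was at 122, 116 and 266 CPM in the controls and at 166, 157 and 161 CPM in the knockout. The knockout libraries lay close together, between the lower controls and control replicate 3 (log2 fold change -0.06, SE 0.29, edgeR adjusted p = 0.92). Without control replicate 3 the difference turned to 0.44 and passed (adjusted p = 0.015), as far as the remaining controls show. SHMT2 (ENSG00000182199, chromosome 12 from 57229573 to 57234935, plus strand) was at 140, 143 and 180 CPM and at 178, 169 and 168 CPM (log2 fold change 0.15, SE 0.11, edgeR adjusted p = 0.37). It moved to 0.28 without control replicate 3 and did not pass there either (adjusted p = 0.052).

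Each of these 3 mitochondrial enzymes has a second isozyme in the table. The cytosolic SHMT1 fell from 123 ± 9.56 to 89.1 ± 2.57 CPM (SD, n = 3; log2 fold change -0.47, SE 0.08, edgeR adjusted p = 0.0059), a call kept in all 14 alternatives. Per length, SHMT2 stood at 1.61, 1.75 and 2.44 times the FPKM of SHMT1 in the controls and at 3.11, 2.80 and 2.93 times in the knockout libraries. These ratios did not overlap between the groups, and the exact two-sided permutation test gave p = 0.10, the smallest that 3 against 3 libraries allow (0.30 adjusted over 3 ratios). MTHFD1, the trifunctional cytosolic enzyme, was at 269 ± 39 and 296 ± 35.2 CPM (adjusted p = 0.50), and MTHFD2L, the relative of MTHFD2, at 8.04 ± 0.424 and 8.32 ± 0.16 CPM (adjusted p = 0.83). The FPKM ratio of MTHFD2 to MTHFD2L was 13.8, 11.8 and 28.8 in the controls and 17.6, 16.3 and 16.4 in the knockout, and its groups overlapped (exact permutation p = 1.0). That of MTHFD1L to MTHFD1 was 0.673 ± 0.0725 in the controls and 0.783 ± 0.0953 in the knockout (SD, n = 3; exact permutation p = 0.30).

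The sulfur enzymes had the lowest mean levels among the members in the controls, whereas in the knockout the mean of ASS1 (7.22 CPM) was below that of CBS (15.7 CPM). CBS (ENSG00000160200, chromosome 21 from 43053191 to 43076362, minus strand), which joins homocysteine to serine, was at 7.3, 7.33 and 20.6 CPM in the controls and at 7.45, 19.5 and 20 CPM in the knockout. The values lay near a low and a high level that cut across the groups, with control replicate 3 and knockout replicates 2 and 3 at the high one. The difference did not pass with all libraries (log2 fold change 0.41, SE 0.49, edgeR adjusted p = 0.61), without control replicate 3 (1.10, adjusted p = 0.15) or without knockout replicate 1 (0.75, adjusted p = 0.26).

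CTH (ENSG00000116761, chromosome 1 from 70411218 to 70439851, plus strand), which releases cysteine from cystathionine, was at 3.66, 3.68 and 4.04 CPM in the controls and at 3.22, 2.89 and 2.4 CPM in the knockout. Every knockout library was below every control, as for 21.5% of tested genes, but the difference did not pass (log2 fold change -0.42, SE 0.19, edgeR adjusted p = 0.17). Over the alternatives its adjusted p ran from 0.090 to 0.39.

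**Figure D3:**
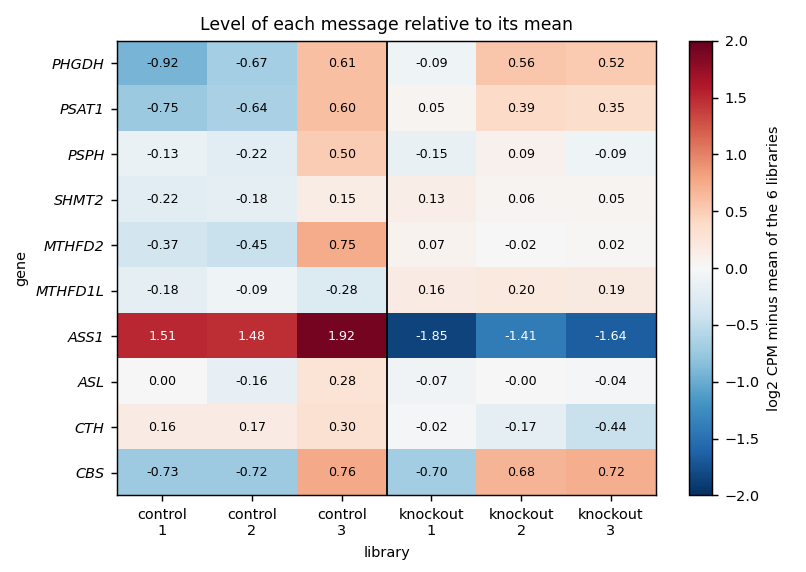
Log2 CPM (with 0.05 CPM added) of each member in each library minus its mean over the 6 libraries; rows are genes, columns libraries, red above and blue below the mean. PHGDH, PSAT1 and CBS are above their mean in control replicate 3 and knockout replicates 2 and 3, and ASS1 alone separates the groups by more than 2 log2 units.

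Over the members as a whole, control replicate 3 was the highest control for 9 of 10, against 38.2% of all tested genes. The excess over the mean of the other controls was 2.82-fold for CBS, 2.65-fold for PHGDH, 2.45-fold for PSAT1 and 2.23-fold for MTHFD2, and 1.10-fold to 1.6-fold for PSPH, ASS1, ASL, SHMT2 and CTH. Knockout replicate 1 was the lowest knockout library for 7 of 10 members, against 40.2% of all tested genes. It held 0.377 times the CBS level and 0.649 times the PHGDH level of the other knockout libraries, but 1.22 times that of CTH, 1.06 times that of SHMT2 and 1.05 times that of MTHFD2. The coefficient of variation was 61.6% for PHGDH and 50.4% for MTHFD2 among controls and 23% and 2.92% among knockout libraries, whereas for CTH it was 5.67% among controls and 14.6% among knockout libraries.

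FPKM values are per gene length, so levels of different genes can be compared only as far as the length assigned to each gene holds. Those lengths were not examined. On this scale PSAT1 was the most abundant member in the controls at a mean of 70 FPKM, followed by SHMT2 at 31.7 and ASS1 at 21.9. MTHFD2 (13.8), PSPH (12) and MTHFD1L (9.72) followed, and then PHGDH (4.93), ASL (3.09), CBS (1.62) and CTH (1.47). Neighbours in this order overlapped in range except at the steps from PSAT1 to SHMT2, from SHMT2 to ASS1 and from MTHFD1L to PHGDH. On this scale the mean of PHGDH, the first enzyme of the serine pathway, was below those of PSAT1 and PSPH, the later ones. By mean CPM, which ignores length, PHGDH was above PSPH in the controls (48.2 against 35.2) and in the knockout (69.2 against 32.1). The CPM ranges of PHGDH and PSPH overlapped in the controls.

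In the knockout the FPKM order differed mainly in ASS1, which moved from the third place to the eighth at 2.3 FPKM. PSAT1 (94.6) and SHMT2 (35.9) again led, followed by MTHFD2 (13.6), MTHFD1L (12.7), PSPH (11.2) and PHGDH (7.3). ASL (2.97), ASS1, CBS (2.24) and CTH (1.12) overlapped from each to the next. In the controls the mean FPKM of ASS1 was above that of ASL, whereas in the knockout it was below it, with overlapping ranges. By CPM, ASS1 was above ASL in the controls (means of 70.1 and 19.9) and below it in the knockout (7.22 and 18.7). The CPM ranges of the pair did not overlap in either group.

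Genes that surround the members in metabolism were taken from 4 lists. The share of all tested genes that were called, 19.7% with all libraries, was 10.4%, 10.8% and 12.9% without control replicate 1, 2 or 3 and 25.3%, 11.9% and 12.3% without knockout replicate 1, 2 or 3. Counts of calls in a list with a library left out, of 34 to 39 tested genes, are to be read against these shares. Of 34 tested genes of serine and folate one-carbon metabolism 1 rose and 5 fell, 17.6% against the background of 19.7%, with a median log2 fold change of 0.04. The folate hydrolase GGH rose from 49.4 ± 1.64 to 64.1 ± 2.15 CPM. Next to SHMT1, 2 of the 4 glycine cleavage components in the list, DLD and GCSH, fell, DLD from 168 ± 4.77 to 132 ± 3.74 CPM and GCSH from 35.6 ± 1.82 to 26.2 ± 3.57 CPM. The others, GLDC (log2 fold change 0.31, edgeR adjusted p = 0.18) and AMT (-1.05, adjusted p = 0.24), did not pass. FPGS, which adds glutamate to folates, fell from 56.2 ± 2.36 to 43.7 ± 3.96 CPM, and the serine dehydratase SDS from 1.02 ± 0.103 to 0.226 ± 0.122 CPM. SHMT1 alone of these 6 kept its call with each library left out. GGH and DLD lost theirs without control replicate 1 (edgeR adjusted p = 0.051 and 0.053) and SDS without control replicate 2 or knockout replicate 2 (0.059 and 0.055). FPGS and GCSH lost theirs without any one library other than knockout replicate 1 (adjusted p up to 0.089 and 0.11). The list held 2 calls without control replicate 1, 3 without control replicate 2 or knockout replicate 2, 4 without control replicate 3 or knockout replicate 3, and 10 without knockout replicate 1, where the share over all genes rose too.

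Of 34 tested genes of arginine, urea cycle and polyamine metabolism 6 rose and 1 fell, 20.6% in all, with a median log2 fold change of 0.12. Over all tested genes 8.21% were called higher and 11.5% lower, 19.7% in all. CPS1, the mitochondrial carbamoyl phosphate synthetase that starts the urea cycle upstream of ASS1, was at 81.8, 86.7 and 110 CPM in the controls and at 316, 433 and 449 CPM in the knockout. Every knockout library was far above every control, and the mean rose from 92.8 ± 15.1 to 399 ± 72.4 CPM (SD, n = 3; log2 fold change 2.10, SE 0.17, edgeR adjusted p = 2.2e-04). CPS1 thus rose while ASS1 fell, and SLC25A15, the ornithine carrier of mitochondria, rose from 25 ± 1.95 to 33.8 ± 1.31 CPM.

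In the polyamine branch AMD1, which makes decarboxylated S-adenosylmethionine, rose from 145 ± 6.31 to 262 ± 24.4 CPM, and AZIN1, an inhibitor of antizymes, from 164 ± 7.08 to 273 ± 22.8 CPM. The antizyme OAZ2 rose from 44.1 ± 1.09 to 54.6 ± 3.82 CPM. The spermine oxidase SMOX fell from 267 ± 63 to 158 ± 22.1 CPM, and GATM, the first enzyme of creatine synthesis, rose from 7.64 ± 1.32 to 12.2 ± 1.58 CPM. The calls of CPS1, AMD1 and AZIN1 held with each library left out. SLC25A15 lost its call without control replicate 1 (edgeR adjusted p = 0.052) and SMOX without knockout replicate 2 or 3 (0.072 and 0.070). OAZ2 lost its call without control replicate 1, 2 or 3 or knockout replicate 2 (adjusted p up to 0.10), and GATM without control replicate 1 or 3 or knockout replicate 2 or 3 (adjusted p up to 0.11). The list held 4 calls without control replicate 1 or knockout replicate 2 and 12 without knockout replicate 1, against 25.3% of all tested genes.

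Of 34 tested genes of methionine, transsulfuration and glutathione metabolism 4 rose and 4 fell, 23.5% in all, with a median log2 fold change of -0.10. Over all tested genes 8.21% were called higher and 11.5% lower, 19.7% in all. Both subunits of glutamate-cysteine ligase, the enzyme that takes up cysteine for glutathione, were higher. GCLC rose from 230 ± 10.2 to 327 ± 5.32 CPM and GCLM from 116 ± 5.78 to 151 ± 9.37 CPM. SLC7A11, the cystine carrier that supplies cysteine from outside, fell from 393 ± 61.5 to 242 ± 10.6 CPM (SD, n = 3; log2 fold change -0.70, SE 0.12, edgeR adjusted p = 0.0054).

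The sulfur-oxidizing enzymes TST and ETHE1 fell, TST from 38.7 ± 0.733 to 20.3 ± 1.11 CPM and ETHE1 from 20.5 ± 2.66 to 13.5 ± 1.75 CPM, and the mitochondrial aspartate aminotransferase GOT2 from 284 ± 14.7 to 177 ± 21.8 CPM. GGT1, which cleaves extracellular glutathione, rose from 64.8 ± 3.66 to 87.6 ± 5.13 CPM, with related gene copies that can share reads. SLC3A1, part of a cystine and basic amino acid carrier, rose from 1.39 ± 0.495 to 5.58 ± 3.07 CPM, with 2.07, 6.94 and 7.74 CPM in knockout replicates 1, 2 and 3. GCLC, GGT1, TST, GOT2 and SLC7A11 kept their calls with each library left out. GCLM lost its call without control replicate 1 or knockout replicate 2 or 3 (edgeR adjusted p up to 0.061). ETHE1 lost its call without control replicate 2 or 3 or knockout replicate 2 or 3 (up to 0.083), and SLC3A1 without any one library other than knockout replicate 1 (up to 0.10). The list held 5 calls without knockout replicate 2 or 3 and 16 without knockout replicate 1, against 25.3% of all tested genes.

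Of 39 tested genes of the amino acid response and known regulators 1 rose and 10 fell, 28.2% in all, with a median log2 fold change of -0.29. Over all tested genes 8.21% were called higher and 11.5% lower, 19.7% in all, with a median of 0.01. The median of the list includes control replicate 3, the highest control for 28 of these 39 genes. ATF4 itself was at 254, 252 and 453 CPM in the controls and at 314, 281 and 271 CPM in the knockout, a difference that did not pass (log2 fold change -0.15, edgeR adjusted p = 0.69). Its partner and target DDIT3 fell from 12.7 ± 6.41 to 4.05 ± 0.441 CPM and ATF3 from 9.65 ± 1.64 to 4.36 ± 1 CPM. DDIT3 was at 9.09, 8.87 and 20.1 CPM in control replicates 1, 2 and 3. With a library left out its log2 fold change ran from -1.84 to -1.15 and the call was kept (edgeR adjusted p at most 0.043). BACH1, a haem-regulated repressor, fell from 43.2 ± 4.86 to 20.8 ± 1.09 CPM, HIF1A, the hypoxia factor, from 1125 ± 53.3 to 670 ± 12.5 CPM, and KDM4C, a histone demethylase, from 41.6 ± 1.11 to 30.6 ± 0.561 CPM. EIF2S1, the translation factor subunit whose phosphorylation starts the response, rose from 133 ± 6.34 to 196 ± 16.9 CPM.

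In this list control replicate 3 was the highest control for 28 of 39 genes, at a median log2 difference of 0.49 to the other controls, against 0.01 for all tested genes. The same median was 0.55 for the 10 enzymes and -0.13, -0.05 and 0.05 for the lists of serine and folate, arginine, and methionine genes. Without control replicate 3 15 of the 39 genes were called, 6 higher and 9 lower, against 5.19% and 7.68% of all tested genes in that fit. Leaving out that library lowers the control mean of each gene for which it was the highest control. Whether the state of that library accounts for the levels of the serine enzymes was not tested. Of the 6 changes given here, that of ATF3 lost its call without control replicate 1 (edgeR adjusted p = 0.051).

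**Figure D4:**
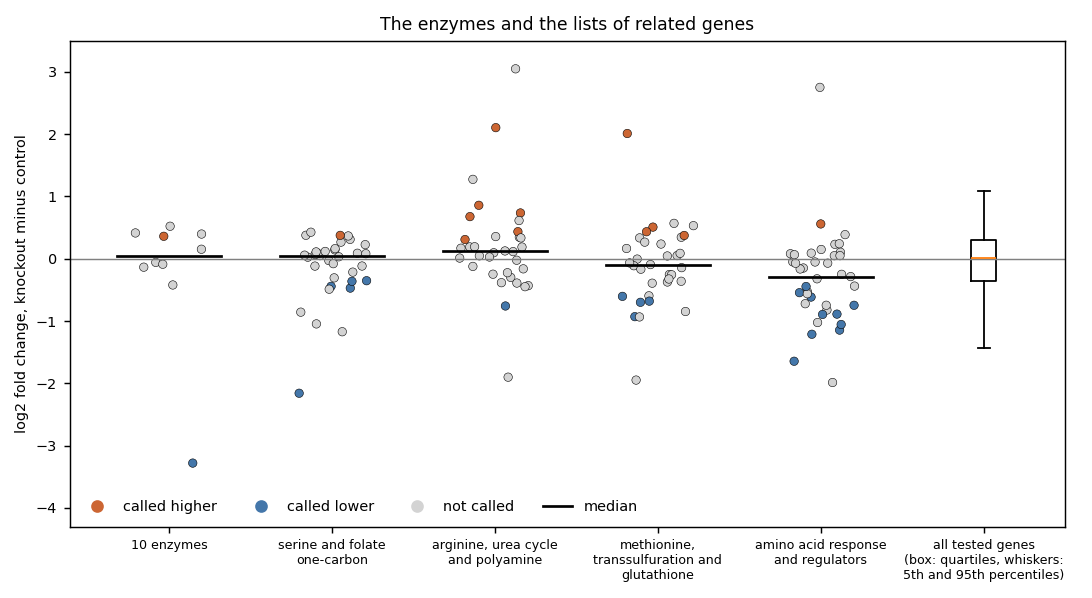
Log2 fold change, knockout minus control (y axis), of the tested members of each group; points are genes, orange called higher, blue called lower and grey not called, black lines group medians, and the box shows all tested genes. The median is -0.29 for the amino acid response genes and between -0.10 and 0.12 for the other lists, and ASS1 at -3.28 is the lowest point.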

How the data were processed

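RNA sequencing of total RNA covered 6 libraries, whose titles gave the groups. Per the labels' protocols, Cutadapt removed adapters and poor reads, HISAT2 aligned the rest and StringTie gave expression levels. GRCh38, edgeR and the versions 2.0.4 of HISAT2 and 1.3.4d of StringTie come from the submitters' processing notes. Neither annotation release nor strand setting is given in the sources used here, so reads of overlapping genes may be mixed. The authors deposited raw whole-number counts per gene, not normalized, beside FPKM values that the authors scaled by gene length and number of reads.

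Low genes were removed by filterByExpr at a minimum count of 10 and a total of 15. The main test was the quasi-likelihood test in edgeR 4.0.16 (R 4.3.3) after TMM scaling, on genotype alone, with Benjamini-Hochberg adjustment over 20134 genes and a threshold of 0.05. Each SE was the log2 fold change divided by the root of its F value. Alternatives used DESeq2 1.42.0, limma 3.58.1 (limma-voom, and log2 of FPKM plus 1 for genes averaging 1 FPKM or more), other filters and scalings, the replicate block, and each library left out. The fits were tested on simulated data. Named genes were the targeted gene, the members, their copies and isozymes, and in each list up to 6 called genes per direction with the smallest adjusted p; 1 gene that the rule names is not reported here. Members and lists were chosen with earlier results of these data known.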

Additional observations from a re-analysis of the deposited data

How the results depend on the processing

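Of 140 values of the 10 members under 14 alternatives, 128 kept direction and side of the threshold, 3 lost the call, 2 gained it with the same sign and 7 changed sign, 1 of which, MTHFD2 without control replicate 3, also gained a call (edgeR adjusted p = 0.015). The sign changes were those of MTHFD2 under limma-voom with quantile normalization (0.073), limma-voom with TMM (0.052), limma on log2(FPKM + 1) (0.068) and the replicate block (0.055), none past the threshold, and without control replicate 3 those of MTHFD2 (0.44), PSPH (0.13) and ASL (0.040), whose lowest values with a library left out were -0.26, -0.26 and -0.18. The cause was not tested. ASS1 passed throughout (log2 fold changes from -3.40 to -2.79). Members called higher numbered 0 to 4 and members called lower 1 when a library was left out, and between 2183 and 5338 of all genes were called. Called genes numbered 2 to 10 in the serine and folate list, 4 to 12 in the arginine list, 5 to 16 in the methionine list and 8 to 15 in the amino acid response list. DESeq2 called 11, 11 and 14 genes in the first 3 of these lists, and for the methionine list both limma-voom with quantile normalization and limma on FPKM called 13. Over all 20134 tested genes DESeq2 called 5209 and limma-voom with quantile normalization 4653, against 3963 in the main fit. The list counts of those fits are to be read against these totals. With the replicate number as a block 3001 genes were called. Deviations of same-numbered libraries correlated at -0.07 to 0, and 0 of 3 controls correlated best with its own number, so no pairing was seen. The libraries that stood apart, control replicate 3 and knockout replicate 1, carry different numbers, so these values do not settle whether the numbers pair the libraries. With the replicate block 1 member was called higher and 1 lower, as without it. With 3 libraries a group, the small change of SHMT2 (log2 fold change 0.15, SE 0.11) was not called, which does not show that it was absent. Without control replicate 3 the SHMT2 value was 0.28 (SE 0.07, edgeR adjusted p = 0.052).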

Other observations

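Further genes of the lists, chosen after their values were seen, differed in which libraries were high. ASNS, the asparagine synthetase, was at 30.8, 32.2 and 148 CPM in control replicates 1, 2 and 3 and at 50.6, 115 and 110 CPM in knockout replicates 1, 2 and 3, the same order as PHGDH. ALDH1L2, a mitochondrial folate dehydrogenase, was at 15.4, 12.7 and 33.2 CPM and at 12.5, 26.4 and 26.2 CPM. In contrast, the pseudokinase TRIB3 was at 49.1, 49.7 and 171 CPM in the controls and between 41.9 and 46 CPM in the knockout libraries, so that control replicate 3 alone was high.

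CHAC1, which degrades glutathione, was at 0.836, 0.826 and 13.7 CPM in the controls and at 2.27, 0.623 and 1.08 CPM in the knockout. STC2, a secreted glycoprotein, was at 20.3, 18.4 and 108 CPM and at 35.5, 34.7 and 29 CPM. MAT2A, which makes S-adenosylmethionine, was at 615, 625 and 2049 CPM in the controls and between 597 and 635 CPM in the knockout. ASNS, TRIB3 and STC2 are from the amino acid response list, ALDH1L2 from the serine and folate list, and CHAC1 and MAT2A from the methionine list. None of these 6 genes passed in the comparison of knockout with control (edgeR adjusted p from 0.16 to 0.91).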
